A study of Mus musculus with 6 samples.

Results

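DNA replication and nucleotide synthesis genes were followed in OT-I T cells that carried a guide against Elovl1, a fatty acid elongase. The cells were sorted from pancreatic tumours 7 days after transfer. The set holds 43 genes, chosen by name for their roles: 10 of origin licensing, 6 of helicase activation, 6 of primase and polymerases, 9 of the clamp, clamp loader and lagging strand, 3 of chromatin copying, 5 of deoxynucleotide supply and 4 of G1 to S control. All 43 passed the filter on low counts and were among the 12546 genes tested. In all, 37 did not pass the test. Pola1 and Ccne2 were higher in sgElovl1 cells, by 2.27-fold and 1.65-fold. Rpa2, Tk1, Rfc2 and Chaf1b were lower, by 1.61-fold, 1.42-fold, 1.40-fold and 1.37-fold. Only Pola1 still passed whichever single library was left out. Tk1, Rfc2 and Chaf1b did not pass in a fit with a gene length offset.

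OT-I CD8+ T cells carry a T cell receptor for an ovalbumin peptide. The donors, OT-I:Rosa26-Cas9 mice, express Cas9 in every cell, and their T cells were transduced with a lentiviral vector that carried the CD90.1 marker and a guide. The sgElovl1 group (3 libraries) carried a guide against Elovl1, and the sgNT group (3 libraries) a non-targeting guide. Cells of both groups were injected into mice with orthotopic KPC_OVA tumours, pancreatic ductal adenocarcinoma cells that present ovalbumin, and all recipients were given anti-PD-1 from the day after adoptive cell transfer (ACT). The CD90.1+ cells were sorted from the primary tumour 7 days after ACT. The study's methods give an age of 6 to 12 weeks for its mice. The RNA of sgElovl1 replicates 1 and 2 each came from 2 pooled tumours and counts as 1 sample each. Guided cells are a mixed population of edited alleles, not a clone.

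To copy its genome once, a cell loads the MCM2 to MCM7 helicase onto origins in G1, with the origin recognition complex, CDC6 and CDT1. At the start of S phase CDC45 and the GINS complex join and the helicase begins to unwind. DNA polymerase alpha and primase then start each new strand, PCNA and its loader hold the working polymerases on the template, and FEN1 and LIG1 join the lagging strand. Cyclin E and the E2F factors set the timing, and many of these genes are E2F targets whose transcripts are abundant in dividing T cells.

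Total expected counts were 21980273 to 26165380 per library, and no pair of libraries held identical values. Elovl1 checked the labels: it stood at 81.5, 76.6 and 95.4 CPM (counts scaled to a common library size) in sgElovl1 replicates 1 to 3 and at 283, 280 and 255 CPM in sgNT, a log2 fold change of -1.69 (SE 0.12, edgeR adjusted p = 8.7e-05). For the markers that follow, CPM uses the unscaled library totals. All 8 T cell markers checked were found in all 6 libraries, and they summed to 9749 to 10493 CPM in sgElovl1 and 11226 to 11520 CPM in sgNT. Of the 8, Cd8a (log2 fold change -0.45, adjusted p = 0.035) and Cd8b1 (-0.49, adjusted p = 0.021) were lower in sgElovl1 and Cd3e (0.40, adjusted p = 0.049) was higher. Replicate 3 of each group stood apart on the second principal component (29.1% of the variance), and the 10 tumour epithelium markers summed to 335 and 1026 CPM in those libraries against 37.4 to 52.4 CPM in the other 4. Of those 10, 3 lay under 1 CPM in every library. The 10 macrophage and monocyte markers summed to 103 to 295 CPM in sgElovl1 and 43.5 to 63.3 CPM in sgNT. Of these, Adgre1 (at most 3.09 CPM, edgeR adjusted p = 0.0060) and C1qa (at most 6.37 CPM, adjusted p = 0.038) were called higher in sgElovl1. The others were not called, among them Cd68 with a log2 fold change of -0.34 (adjusted p = 0.16). The markers of fibroblasts (5), neutrophils (5), erythroid cells (5), acinar cells (6), B cells (4) and endothelial cells (4) summed to at most 15.4 CPM a list in any library. The list for CD4 and regulatory T cells summed to 1064 to 1445 CPM, nearly all from Ctla4, with Cd4 at 0 to 1.15 CPM. Foxp3 of that list stood at 1.32 to 2.55 CPM in sgElovl1 and 3.26 to 8.46 CPM in sgNT (log2 fold change -1.67, edgeR adjusted p = 0.020). The part of the T cell, tumour and macrophage signals in the results below was not tested, and the counts of called genes are also given without replicate 3 of both groups. In bulk RNA, fewer dividing cells and less of a transcript in each cell cannot be told apart.

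Of the 43 genes, 6 were called by edgeR's quasi-likelihood test at a Benjamini-Hochberg adjusted p under 0.05 over all tested genes. Of all tested genes, 13.8% were called, so the 6 of 43 is a share like that of the whole transcriptome. The 2 members called higher stand beside 8.64% of all genes called higher, and the 4 called lower beside 5.13% called lower. The median log2 fold change of the 43 was -0.08, against -0.004 for all tested genes. The groups did not overlap in 12 of 43 members, whereas 37.1% of all genes showed no overlap. The 95% confidence intervals of 40 of the 43 lay within a log2 fold change of 1 in either direction, so changes past 2-fold lay outside these intervals for all but Pola1, Ccne2 and E2f2. Without replicate 3 of both groups, 31.5% of all genes and 13 of 43 members were called, 4 of them higher (beside 15.4% of all genes) and 9 lower (beside 16.1%). By role these were 1 licensing gene lower, 1 helicase activation gene lower, 1 primase and polymerase gene higher and 1 lower, 4 clamp, loader and lagging strand genes lower, 1 chromatin copying gene higher and 1 lower, 1 deoxynucleotide supply gene lower and 2 G1 to S control genes higher.

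**Figure D1:**
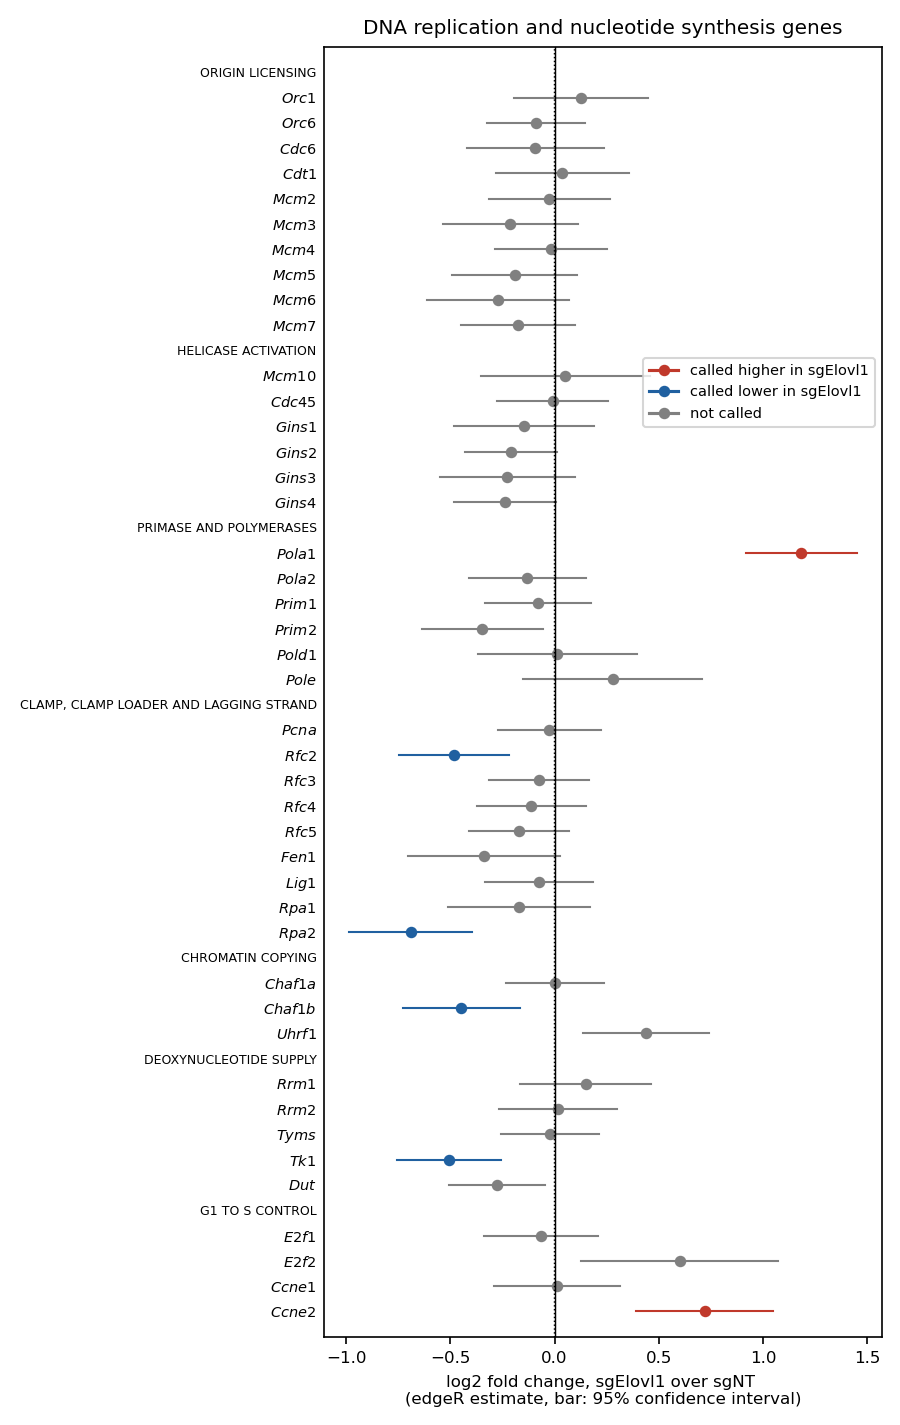
Log2 fold change of each of the 43 genes, sgElovl1 over sgNT, grouped by role. Points are edgeR estimates, bars are 95% confidence intervals, the solid line is 0 and the dotted line is the median of all tested genes (-0.004). Pola1 and Ccne2 stand to the right, Rpa2, Tk1, Rfc2 and Chaf1b to the left, and the intervals of all 10 licensing genes include 0.

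The start sites of some of these genes carry E2F-like letters. RefSeq promoter windows on GRCm38.p6 (250 bases before to 50 after a start) were at hand for 35 of the 43. They were searched on both strands for 4 E2F-like sequences, TTTGGCGC, TTTGCCGC, TTTCGCGC and TTTCCCGC, which can overlap one another, and for CCAAT. An E2F-like sequence was present for 14 of 35 members (40.0%), against 2.60% of 27025 genes with a window and 4.80% of 9296 tested genes with one. CCAAT was present for 21 of 35 (60.0%), against 43.1% of the tested genes. By role, 7 of 9 licensing genes and 0 of 5 deoxynucleotide supply genes held an E2F-like sequence. These are matches of letters, not measured binding. The stretches of 4 members follow, 5′ to 3′ on the gene's strand, all upstream of the start and outside every annotated gene, with both kinds of match in capitals. Pola1 and Rpa2 are shown as the members with the largest difference in each direction, and Mcm5 and Mcm6 as helicase genes with overlapping E2F-like matches that were not called.
Pola1, chrX:93632176-93632305, minus strand: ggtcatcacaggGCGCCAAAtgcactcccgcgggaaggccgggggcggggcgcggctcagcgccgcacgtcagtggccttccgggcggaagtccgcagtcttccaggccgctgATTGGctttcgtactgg
Rpa2, chr4:132768265-132768325, plus strand: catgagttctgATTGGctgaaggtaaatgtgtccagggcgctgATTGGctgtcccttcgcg
Mcm5, chr8:75109341-75109382, plus strand: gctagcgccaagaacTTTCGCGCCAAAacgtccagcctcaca
Mcm6, chr1:128359730-128359830, minus strand: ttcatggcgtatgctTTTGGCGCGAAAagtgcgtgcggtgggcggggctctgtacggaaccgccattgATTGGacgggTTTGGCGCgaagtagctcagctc
The Pola1 stretch holds 1 E2F-like match, 138 to 131 bases before the start, and 1 CCAAT match on the other strand (ATTGG). The Rpa2 stretch holds ATTGG at 2 places and no E2F-like match. Of the 14 members with an E2F-like match, 1 was called higher and 0 lower, with a median log2 fold change of -0.08. Of the 21 without, 0 were called higher and 3 lower, also with a median of -0.08, beside 8.64% higher and 5.13% lower over all tested genes. The called members Rfc2 and Ccne2 are not in this split, since they are among the 8 with no window at hand. Without replicate 3 of both groups the calls were 3 higher and 1 lower of the 14 and 0 higher and 5 lower of the 21, beside 15.4% and 16.1%. The difference between the 14 and the 21 was not tested.

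Levels can be compared between genes only per length, in TPM (each transcript's share after scaling by length, averaged here over the 6 libraries). They ran from 2.68 TPM for E2f2, a transcription factor, to 352 TPM for Pcna, the sliding clamp. Over 100 TPM stood 11 of the 43: 3 helicase subunits, 5 genes of the clamp, loader and lagging strand, and 3 of deoxynucleotide supply. Under 10 TPM stood 6, among them the catalytic subunits of polymerases alpha (Pola1, 5.11 TPM) and epsilon (Pole, 6.33 TPM). The partners of Pola1 in the polymerase alpha and primase complex stood far above it, Prim1 at 62.2 TPM, Pola2 at 39.4 TPM and Prim2 at 24.4 TPM.

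**Figure D2:**
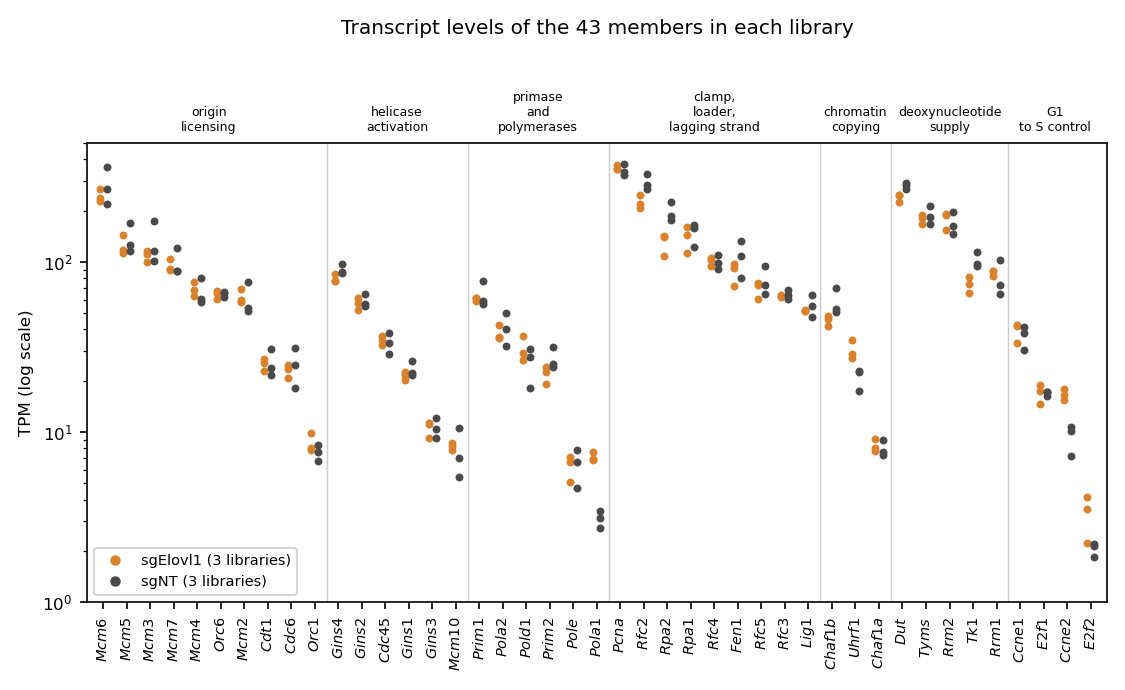
TPM of each gene in each library on a log scale, by role, with the 3 sgElovl1 libraries in orange and the 3 sgNT libraries in dark grey. Pcna, Mcm6, Dut and Rfc2 had the highest mean levels, and Pola1, E2f2, Pole, Mcm10, Orc1 and Chaf1a lay under 10 TPM.

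Of the 10 origin licensing genes, 0 passed the test in either direction with edgeR, DESeq2 or limma-voom. These called 13.8%, 17.6% and 15.2% of all tested genes. In a role of 10 genes, 0 calls is a description and no result about the role. At an unadjusted edgeR p under 0.05 there were also 0, and the log2 fold changes ran from -0.27 to 0.13. Mcm6, a helicase subunit with both the highest level of the role (263 TPM) and its smallest p, stood at 544, 626 and 581 CPM in sgElovl1 and 675, 868 and 568 CPM in sgNT (log2 fold change -0.27, SE 0.16, 95% confidence interval -0.61 to 0.07, edgeR adjusted p = 0.25). Those groups overlapped, with sgNT replicates 1 and 2 above every sgElovl1 library and sgNT replicate 3 between sgElovl1 replicates 1 and 3. Without sgNT replicate 2 the log2 fold change was -0.08, and without replicate 3 of both groups -0.40 (adjusted p = 0.038). The other helicase subunits had estimates of -0.21 (Mcm3), -0.19 (Mcm5), -0.18 (Mcm7), -0.02 (Mcm2) and -0.02 (Mcm4), all with overlapping groups. Summed over MCM2 to MCM7, the level was 661, 778 and 673 TPM in sgElovl1 and 711, 981 and 632 TPM in sgNT. The range within sgNT was thus wider than the gap between the groups. Orc1 and Orc6, of the origin recognition complex, had log2 fold changes of 0.13 and -0.09, and the loaders Cdc6 and Cdt1 of -0.09 and 0.04.

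Among the libraries, sgNT replicate 2 held the highest level of all 6 MCM2 to MCM7 genes and of 26 of the 43 members, against 20.2% of all tested genes. The library with the lowest level was sgElovl1 replicate 1 for 19 of the 43, against 20.0% of all tested genes. These ranks were read after the values were seen. The median SD of log2 CPM within a group was 0.16 over the members and 0.20 over all tested genes.

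**Figure D3:**
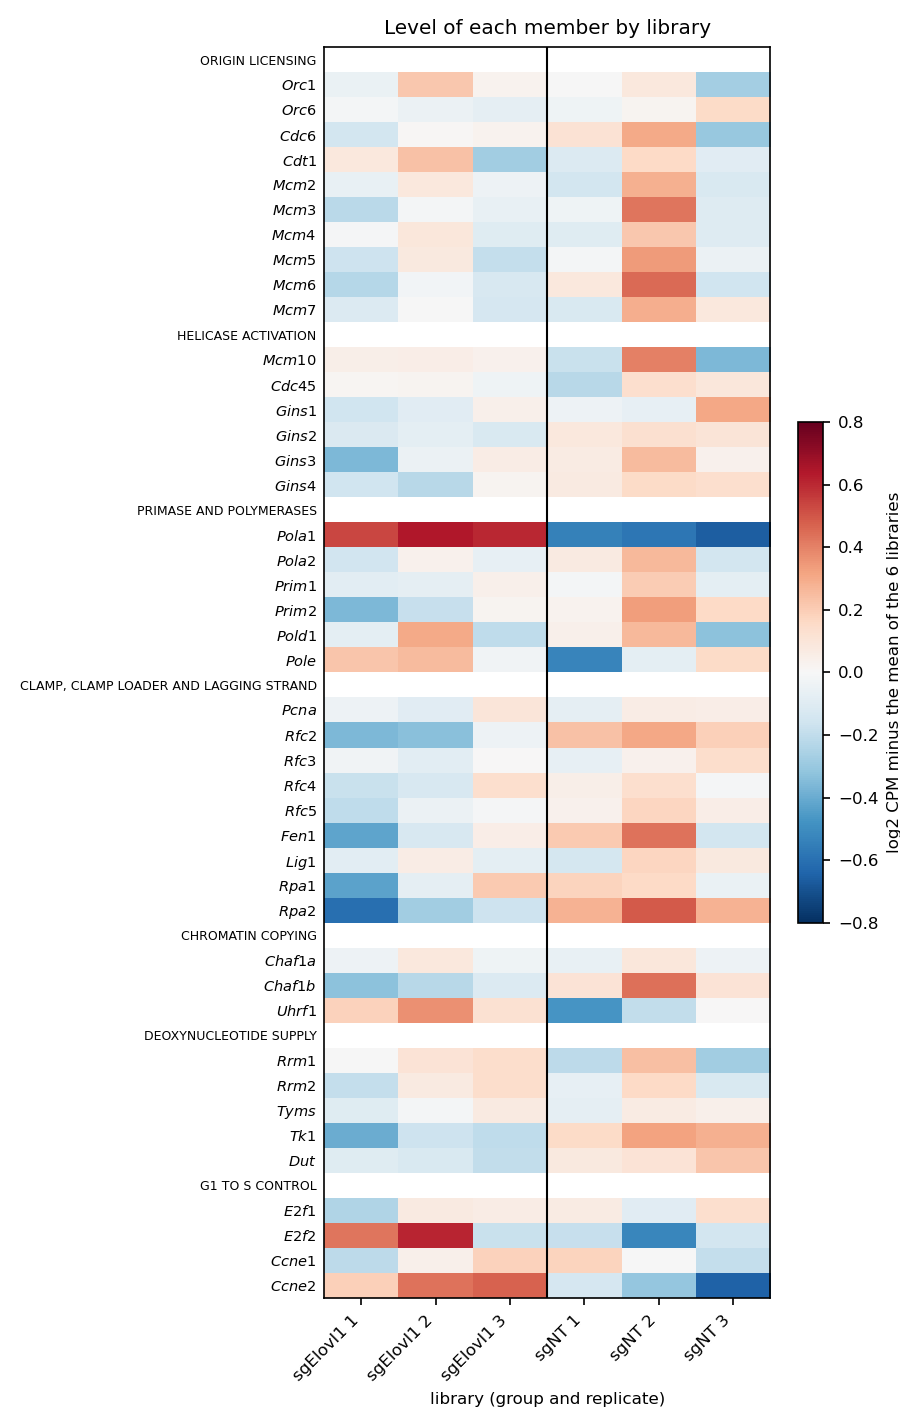
Level of each gene in each library, as log2 CPM minus the gene's mean over the 6 libraries, with red above and blue below that mean. Values ran from -0.66 to 0.64. The sgNT 2 column is red through the helicase subunits, and only Pola1, Rpa2, Rfc2, Chaf1b, Tk1, Ccne2 and a few others part the left 3 columns from the right 3.

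Helicase activation genes also had 0 of 6 called by edgeR, DESeq2 or limma-voom, beside 13.8%, 17.6% and 15.2% of all tested genes. At an unadjusted edgeR p under 0.05 there were 0, with log2 fold changes from -0.24 to 0.05. Gins4, a subunit of the GINS complex with the highest level and the smallest p of the role, stood at 78.4, 75.3 and 88.9 CPM in sgElovl1 and 92.1, 97.6 and 96.3 CPM in sgNT (log2 fold change -0.24, SE 0.11, 95% confidence interval -0.48 to 0.01, edgeR adjusted p = 0.17). Gins2 stood at 42.4, 43.7 and 42.4 CPM in sgElovl1 and 48.8, 50.3 and 49.4 CPM in sgNT (log2 fold change -0.21, SE 0.10, adjusted p = 0.18). In both, each sgElovl1 library lay below each sgNT library, though neither passed the test, and Gins4 did so without replicate 3 of both groups (-0.31, adjusted p = 0.032). Gins1 and Gins3 had overlapping groups and estimates of -0.15 and -0.23. Cdc45, which joins GINS on the helicase, had -0.01, and Mcm10, a firing factor, 0.05.

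Primase and polymerase genes held the largest difference of the set. Pola1 (chrX:93304767-93632155, minus strand, GENCODE M21), the catalytic subunit of DNA polymerase alpha that extends each RNA primer, stood at 33.1, 35.5 and 34.7 CPM in sgElovl1 and 15.7, 15.3 and 14.5 CPM in sgNT (log2 fold change 1.18, SE 0.12, 95% confidence interval 0.92 to 1.45, edgeR adjusted p = 5.9e-04). The lowest sgElovl1 library was above the highest sgNT library by more than 2-fold, and the SD within groups was 1.26 and 0.61 CPM (n = 3 each). Pola1 was called under all 17 alternatives, with adjusted p up to 0.010 and log2 fold changes from 0.88 (with a gene length offset) to 1.22. A pseudogene and a small RNA gene that overlap it held at most 0.041 CPM. Its partners were not called. Pola2, the accessory subunit, stood at 67.4, 77.0 and 71.6 CPM in sgElovl1 and 78.7, 90.0 and 67.9 CPM in sgNT (log2 fold change -0.13, SE 0.13, adjusted p = 0.51), and Prim1, the primase catalytic subunit and the most abundant gene of the role, at 78.6, 79.3 and 85.5 CPM in sgElovl1 and 82.4, 96.0 and 78.8 CPM in sgNT (log2 fold change -0.08, SE 0.12, 95% confidence interval -0.34 to 0.18, edgeR adjusted p = 0.67). Prim2, the large primase subunit, stood at 31.2, 35.2 and 40.6 CPM in sgElovl1 and 40.8, 50.5 and 44.7 CPM in sgNT (log2 fold change -0.35, SE 0.13, adjusted p = 0.098) and was called lower only where sgElovl1 replicate 3 (-0.45, adjusted p = 0.038) or replicate 3 of both groups was left out (-0.46, adjusted p = 0.020).

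Within each library, the TPM of Pola1 relative to Pola2 was 0.188 ± 0.007 in sgElovl1 and 0.077 ± 0.009 in sgNT (mean ± SD, n = 3 each), and relative to Prim1 0.118 ± 0.005 and 0.049 ± 0.004. These ratios, and those further below, were chosen after the values were seen and carry no test. The replicative polymerases gave smaller estimates. Pold1, of the lagging strand polymerase delta, had a log2 fold change of 0.01 (SE 0.17, adjusted p = 0.97), and Pole, of the leading strand polymerase epsilon, 0.28 (SE 0.20, adjusted p = 0.35). The deposited length of Pole, 2018 bases, is the mean of its isoforms weighted by their estimated share.

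**Figure D4:**
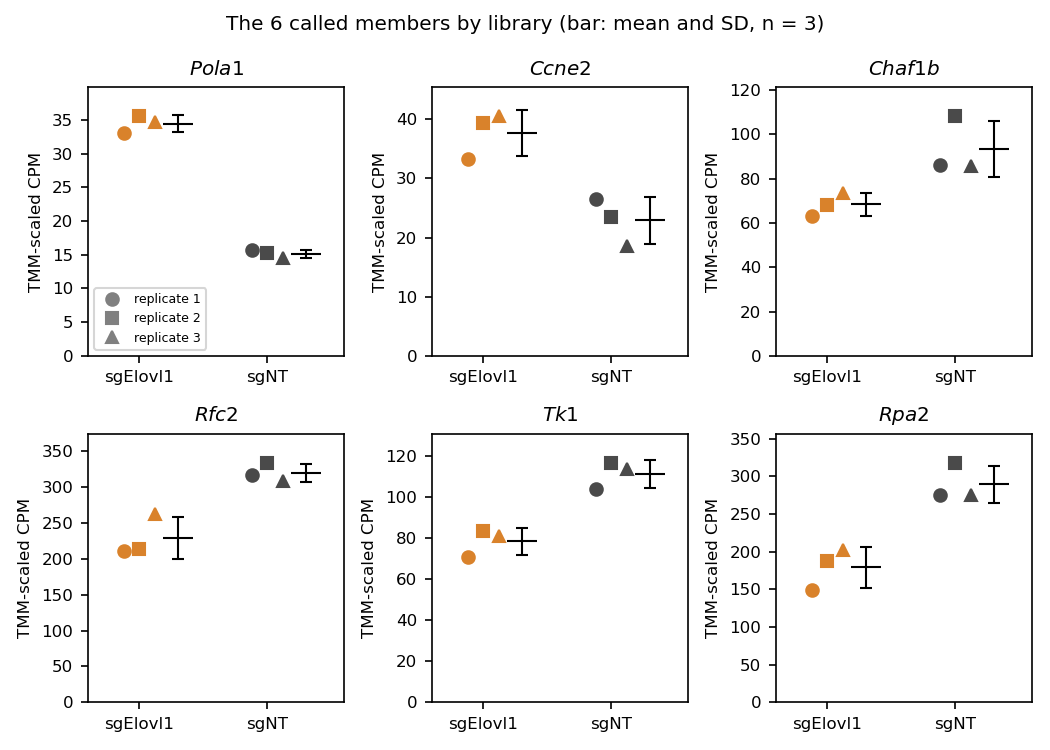
TMM-scaled CPM of the 6 called genes in each library (circle, replicate 1; square, replicate 2; triangle, replicate 3) with the mean and SD of each group (n = 3) beside the points. Axes start at 0. In all 6 panels the groups do not overlap, and Pola1 shows the widest gap, 33.1 to 35.5 against 14.5 to 15.7 CPM.

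Clamp, clamp loader and lagging strand genes had 2 of 9 called lower, 0 higher and 7 not called, with all 9 estimates below 0. Among all 43 members 30 estimates were below 0. With a gene length offset Pcna (0.15), Rfc3 (0.10) and Rfc4 (0.05) were above 0, and the others of the role stayed below it. Of all tested genes 5.13% were called lower and 8.64% higher, so that in a role of 3 to 9 genes 1 or 2 calls is a description and no result about the role. Rpa2 (chr4:132768332-132778752, plus strand), the middle subunit of the protein that coats single strands, stood at 149, 187 and 202 CPM in sgElovl1 and 275, 318 and 275 CPM in sgNT (log2 fold change -0.69, SE 0.13, 95% confidence interval -0.99 to -0.40, edgeR adjusted p = 0.0094). All sgElovl1 libraries were below all sgNT libraries. The call was lost without sgElovl1 replicate 2 (adjusted p = 0.056) or sgNT replicate 2 (adjusted p = 0.063), where the estimates were -0.72 and -0.61. Rpa1, its large partner, stood at 188, 241 and 292 CPM in sgElovl1 and 286, 282 and 244 CPM in sgNT (log2 fold change -0.17, SE 0.15, adjusted p = 0.48), with overlapping groups. The TPM ratio of Rpa2 to Rpa1 was 0.963, 0.976 and 0.876 in sgElovl1 and 1.17, 1.37 and 1.44 in sgNT.

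Rfc2 (chr5:134581366-134601805, plus strand), a subunit of the complex that opens the clamp and loads it onto DNA, stood at 210.0, 214 and 262 CPM in sgElovl1 and 316, 333 and 308 CPM in sgNT (log2 fold change -0.48, SE 0.12, 95% confidence interval -0.75 to -0.22, edgeR adjusted p = 0.026). The other loader subunits measured here had estimates of -0.07 (Rfc3), -0.11 (Rfc4) and -0.17 (Rfc5), none called, and the TPM ratio of Rfc2 to Rfc4 was 2.23 ± 0.12 in sgElovl1 and 2.94 ± 0.06 in sgNT (n = 3 each). Rfc2 lost its call without replicate 1 or 2 of either group (adjusted p from 0.075 to 0.14). It overlaps Lat2 on the opposite strand over 1784 bases. The study's methods name a strand-specific mRNA service, but whether reads were counted by strand is not given in the sources used here. For Lat2 itself the estimate was -0.46 (adjusted p = 0.27).

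Pcna, the clamp, had the highest level of all 43 genes and stood at 406, 391 and 446 CPM in sgElovl1 and 396, 435 and 433 CPM in sgNT (log2 fold change -0.02, SE 0.11, 95% confidence interval -0.27 to 0.22, edgeR adjusted p = 0.91). Its groups overlapped. The pseudogene Pcna-ps2 held 51.0 to 68.0 counts against at least 9306 for Pcna. Fen1, the flap nuclease, stood at 132, 162 and 184 CPM in sgElovl1 and 205, 239 and 159 CPM in sgNT (log2 fold change -0.34, SE 0.17, adjusted p = 0.18), with sgNT replicate 2 highest and sgElovl1 replicate 1 lowest. Without replicate 3 of both groups Fen1 was called (-0.60, adjusted p = 0.0045), as was Rpa1 (-0.41, adjusted p = 0.023). Lig1, the ligase that seals the lagging strand, had -0.08 (SE 0.12, adjusted p = 0.69).

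Chromatin copying genes had 1 of 3 called lower (beside 5.13% of all genes). Chaf1b (chr16:93883901-93906115, plus strand), the middle subunit of the histone chaperone CAF-1 that deposits histones on new DNA, stood at 63.3, 68.3 and 73.7 CPM in sgElovl1 and 86.1, 108 and 85.9 CPM in sgNT (log2 fold change -0.45, SE 0.13, 95% confidence interval -0.73 to -0.17, edgeR adjusted p = 0.041). It was also the most abundant gene of the role (51.6 TPM), and its call was lost without replicate 1 or 2 of either group (adjusted p from 0.071 to 0.16). Chaf1a, the large CAF-1 subunit, stood at 40.6, 44.2 and 40.7 CPM in sgElovl1 and 40.1, 44.5 and 40.6 CPM in sgNT (log2 fold change 0.00, SE 0.11, adjusted p = 0.99). The TPM ratio of Chaf1b to Chaf1a was 5.50 ± 0.42 in sgElovl1 and 7.25 ± 0.51 in sgNT (n = 3 each). With a gene length offset, however, the estimates of Chaf1b and Chaf1a were alike, at -0.32 and -0.31. Uhrf1, which recruits the maintenance DNA methyltransferase to newly copied DNA, stood at 87.1, 98.5 and 83.3 CPM in sgElovl1 and 55.1, 66.7 and 76.6 CPM in sgNT (log2 fold change 0.44, SE 0.14, 95% confidence interval 0.14 to 0.74, edgeR adjusted p = 0.056), and was not called. Its groups did not overlap, and it was called under 6 of the 17 alternatives, among them without replicate 3 of both groups (0.60, adjusted p = 0.0034).

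Deoxynucleotide supply genes had 1 of 5 called lower (beside 5.13% of all genes). Tk1 (chr11:117815526-117826092, minus strand), which salvages thymidine, stood at 71.1, 83.4 and 81.1 CPM in sgElovl1 and 104, 117 and 114 CPM in sgNT (log2 fold change -0.51, SE 0.11, 95% confidence interval -0.76 to -0.26, edgeR adjusted p = 0.017), with every sgElovl1 library below every sgNT library. The call was lost without sgElovl1 replicate 1 (-0.44, adjusted p = 0.086), sgElovl1 replicate 2 (-0.55, adjusted p = 0.073) or sgNT replicate 2 (-0.46, adjusted p = 0.080). Tk1 shares 169 bases with Afmid on the opposite strand, which was also lower (-0.72, adjusted p = 0.0060) at 17.1 to 33.2 CPM, and reads from the shared bases cannot be told apart without strand. Tyms, which makes thymidylate anew, stood at 112, 118 and 125 CPM in sgElovl1 and 113, 125 and 123 CPM in sgNT (log2 fold change -0.02, SE 0.11, adjusted p = 0.90), with overlapping groups. The TPM ratio of Tk1 to Tyms was 0.413 ± 0.033 in sgElovl1 and 0.547 ± 0.016 in sgNT (n = 3 each).

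Both subunits of ribonucleotide reductase, which makes deoxynucleotides from ribonucleotides, had overlapping groups. Rrm1 had a log2 fold change of 0.15 (SE 0.14, adjusted p = 0.50) and Rrm2 of 0.02 (SE 0.13, adjusted p = 0.95), and the TPM ratio of Rrm2 to Rrm1 was 2.05 ± 0.16 in sgElovl1 and 2.13 ± 0.19 in sgNT. Dut, the most abundant gene of the role (259 TPM), which clears dUTP, stood at 180.1, 177 and 168 CPM in sgElovl1 and 203, 207 and 225 CPM in sgNT (log2 fold change -0.28, SE 0.10, 95% confidence interval -0.51 to -0.05, edgeR adjusted p = 0.097). Each sgElovl1 library of Dut lay below each sgNT library, and it was not called under any of the 17 alternatives.

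G1 to S control genes had 1 of 4 called higher (beside 8.64% of all genes). Ccne2 (chr4:11191351-11204779, plus strand), a cyclin E that activates CDK2 at the start of S phase, stood at 33.3, 39.4 and 40.5 CPM in sgElovl1 and 26.5, 23.5 and 18.7 CPM in sgNT (log2 fold change 0.72, SE 0.15, 95% confidence interval 0.39 to 1.05, edgeR adjusted p = 0.013), with no overlap. The call was lost without sgElovl1 replicate 2 (adjusted p = 0.080) or sgNT replicate 2 (adjusted p = 0.064), with estimates of 0.69 and 0.75. Ints8 overlaps it on the opposite strand over 5622 bases and was itself at -0.04 on the log2 scale (adjusted p = 0.91). Ccne1, the other cyclin E and the most abundant gene of the role, stood at 53.6, 63.9 and 70.7 CPM in sgElovl1 and 70.2, 61.9 and 54.5 CPM in sgNT (log2 fold change 0.01, SE 0.14, 95% confidence interval -0.29 to 0.31, edgeR adjusted p = 0.96). The TPM ratio of Ccne2 to Ccne1 was 0.424 ± 0.039 in sgElovl1 and 0.254 ± 0.023 in sgNT (n = 3 each). Of the activating E2F factors, E2f1 had -0.07 (SE 0.12, adjusted p = 0.75), and E2f2, the least abundant member, stood at 15.1, 17.0 and 9.88 CPM in sgElovl1 and 9.84, 7.80 and 10.1 CPM in sgNT (log2 fold change 0.60, SE 0.22, adjusted p = 0.083). The higher mean of E2f2 came from sgElovl1 replicates 1 and 2, and it was called without sgElovl1 replicate 3 (0.80, adjusted p = 0.016), without replicate 3 of both groups (0.86, adjusted p = 0.0049) and without the low count filter (0.62, adjusted p = 0.041).

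The differences of the members ran with transcript length. The called higher genes had deposited lengths of 2699 (Ccne2) and 5305 bases (Pola1), and the called lower genes 1359 (Rfc2), 1394 (Tk1), 1756 (Rpa2) and 1891 bases (Chaf1b). Across genes, which are not independent replicates and share the 6 libraries, Spearman's rho of length and log2 fold change was 0.50 over the 43 members and 0.30 over all tested genes. In 10 classes of length, the median log2 fold change of all tested genes went from -0.19 in the class around 1421 bases to 0.37 in the class around 5035 bases. Chaf1a was the longest member at 5576 bases and had a log2 fold change of 0.00. With a gene length offset, which takes each library's own trend with length out of the fit, 2 members stayed called higher, Pola1 (0.88, adjusted p = 0.0047) and Ccne2 (0.68, adjusted p = 0.019), and 1 lower, Rpa2 (-0.55, adjusted p = 0.022). Under that offset Tk1 (-0.33, adjusted p = 0.077), Rfc2 (-0.31, adjusted p = 0.091) and Chaf1b (-0.32, adjusted p = 0.11) were not called. Chaf1a, at 0.00 without the offset, was at -0.31 with it (edgeR adjusted p = 0.11) and was not called either. Of all tested genes 9.11% were called with the offset (6.21% higher and 2.9% lower), against 13.8% without it, so the member count fell along with that of the whole transcriptome. The same 3 members were called on log2(TPM + 1) with limma, where all tested genes gave 923 higher and 162 lower against 1084 higher and 643 lower in counts.

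**Figure D5:**
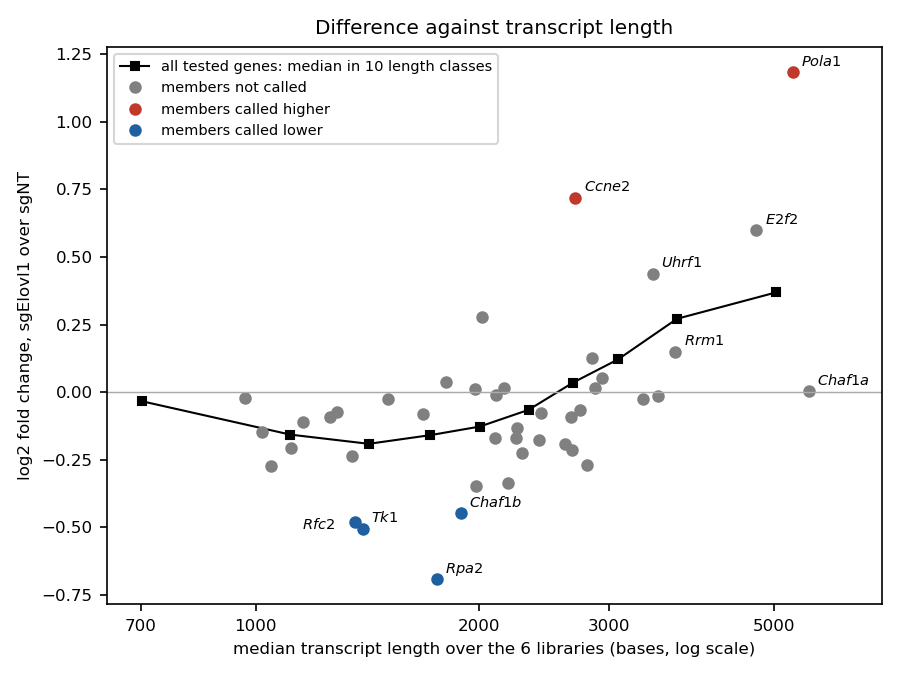
Log2 fold change of each member against the median of its deposited transcript length over the 6 libraries (bases, log scale). Black squares are medians of all tested genes in 10 length classes, red points are members called higher, blue points members called lower and grey points members not called. Pola1 and Ccne2 lie above the black line and Rpa2, Tk1, Rfc2 and Chaf1b below it, and Chaf1a, the longest member, lies at 0.00.

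A list of 106 other genes of replication, nucleotide synthesis and G1 to S control was read beside the members. Of these 105 were tested, all but Ccnd1, and 9 were called higher and 5 lower, 13.3% beside 13.8% of all genes. The median log2 fold change was -0.05. Of 12 genes for origin recognition and firing, 3 were called higher and 0 lower, beside 8.64% higher and 5.13% lower of all tested genes. They were Topbp1, 0.40 (SE 0.11, adjusted p = 0.035), Ticrr, 0.84 (SE 0.19, adjusted p = 0.017), and Wdhd1, 0.58 (SE 0.12, adjusted p = 0.011). TOPBP1 and TICRR act in origin firing, and WDHD1 ties polymerase alpha to the helicase. Wdhd1 stood at 38.3, 36.8 and 36.0 CPM in sgElovl1 and 23.2, 26.7 and 24.4 CPM in sgNT, without overlap. Topbp1 lost its call without sgElovl1 replicate 1 or 2, or without sgNT replicate 1, 2 or 3 (adjusted p up to 0.18). Ticrr lost its call without sgElovl1 replicate 1 or 2, or without sgNT replicate 2 (adjusted p up to 0.096). Wdhd1 lost its call without sgElovl1 replicate 1 or 2 (adjusted p up to 0.071). Topbp1 and Wdhd1 also lost their calls with either length offset, and Ticrr on log2(TPM + 1) and log2(TPM + 0.1).

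Of 20 other fork genes, 1 was called higher and 2 lower, beside 8.64% higher and 5.13% lower of all tested genes. Top2a, the topoisomerase that untangles copied DNA, stood at 157, 152 and 141 CPM in sgElovl1 and 88.0, 93.2 and 86.9 CPM in sgNT (log2 fold change 0.75, SE 0.11, 95% confidence interval 0.51 to 0.98, edgeR adjusted p = 0.0025) and was called under all 17 alternatives. Pold2, an accessory subunit of polymerase delta, was lower at -0.51 (SE 0.13, adjusted p = 0.025), as was Rnaseh2b, of the nuclease that removes ribonucleotides, at -0.44 (SE 0.13, adjusted p = 0.043). With the replicate block the call of Rnaseh2b was lost (adjusted p = 0.059). Dnmt1, the maintenance DNA methyltransferase, was the 1 of 8 other chromatin copying genes called (beside 13.8% of all genes), higher at 0.50 (SE 0.13, adjusted p = 0.031). Pold2 lost its call without sgElovl1 replicate 1 or 2, or without sgNT replicate 2 (adjusted p up to 0.12). Rnaseh2b lost its call without sgElovl1 replicate 1 or 2, or without sgNT replicate 1 or 2 (adjusted p up to 0.18). Dnmt1 lost its call without sgElovl1 replicate 1 or 2, or without sgNT replicate 1 or 3 (adjusted p up to 0.16). Pold2, Rnaseh2b and Dnmt1 also lost their calls with either length offset. Rnaseh2b and Dnmt1 lost theirs on log2(TPM + 1) and log2(TPM + 0.1) too. Over the 17 alternatives the estimates of Dnmt1 ran from 0.19 to 0.62.

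None of the 14 genes of thymidylate synthesis and salvage passed edgeR's test (beside 13.8% of all genes), although 4 had an unadjusted p under 0.05. DESeq2 and limma-voom each called 1 of them lower, beside 17.6% and 15.2% of all genes called. This was Shmt1, an enzyme that loads folate with carbon units from serine. Of 17 genes of purine and pyrimidine synthesis, 1 was called (beside 13.8% of all genes): Adsl, an enzyme of purine synthesis, lower at -0.53 (SE 0.13, adjusted p = 0.027). Its sgElovl1 libraries stood at 108 to 112 CPM and its sgNT libraries at 137 to 190. Adsl lost its call without sgElovl1 replicate 1 or 2, or without sgNT replicate 1 or 2 (adjusted p up to 0.12). It also lost its call on log2(TPM + 1), on log2(TPM + 0.1) and with either length offset.

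Of 25 other G1 to S control genes tested, 3 were called higher and 2 lower, beside 8.64% higher and 5.13% lower of all tested genes. Rb1, the retinoblastoma protein that holds E2F in check, stood at 33.7, 30.0 and 25.6 CPM in sgElovl1 and 17.0, 16.6 and 16.7 CPM in sgNT (log2 fold change 0.83, SE 0.14, 95% confidence interval 0.53 to 1.13, edgeR adjusted p = 0.0046). Mki67, a marker of dividing cells, stood at 87.4, 84.4 and 72.6 CPM in sgElovl1 and 57.3, 59.4 and 53.4 CPM in sgNT (log2 fold change 0.52, SE 0.12, 95% confidence interval 0.27 to 0.78, edgeR adjusted p = 0.016). E2f4, a repressing E2F, was lower at -0.52 (SE 0.12, adjusted p = 0.023), and Cdk4, the cyclin D kinase, at -0.36 (SE 0.10, adjusted p = 0.042), with the call of Cdk4 lost under the replicate block (adjusted p = 0.061). The remaining 2 called genes, named after their values were seen, were E2f7, 0.72 (SE 0.22, adjusted p = 0.050), and Atr, the checkpoint kinase, 0.67 (SE 0.20, adjusted p = 0.049). Atr was the 1 of 9 checkpoint genes called, beside 13.8% of all genes. Leaving out 1 library at a time kept the call of Rb1 in all 6 fits. Rb1 was not called on log2(TPM + 1) or log2(TPM + 0.1) with limma (adjusted p up to 0.096). Its lowest estimate over the 17 alternatives was 0.52. Mki67 lost its call without sgElovl1 replicate 1 or 2, or without sgNT replicate 1 or 2 (adjusted p up to 0.097). It also lost its call on log2(TPM + 1), on log2(TPM + 0.1) and with either length offset. Over the 17 alternatives its estimates ran from 0.16 to 0.60. E2f4 lost its call without sgElovl1 replicate 1 or 2, or without sgNT replicate 1 or 2 (adjusted p up to 0.12). It also lost its call on log2(TPM + 1), on log2(TPM + 0.1) and with the replicate block and length offset together. Cdk4 lost its call without sgElovl1 replicate 1 or 2, or without sgNT replicate 1, 2 or 3 (adjusted p up to 0.17). E2f7 lost its call without sgElovl1 replicate 1 or 2, or without sgNT replicate 1 or 2 (adjusted p up to 0.19). It also lost its call under the replicate block (adjusted p = 0.063). Atr lost its call without sgElovl1 replicate 1 or 2, or without sgNT replicate 1, 2 or 3 (adjusted p up to 0.21). Cdk4, E2f7 and Atr also lost their calls on log2(TPM + 1), on log2(TPM + 0.1) and with either length offset. Upper quartile factors removed the calls of E2f7 and Atr, RLE factors that of E2f7, and leaving out the low count filter that of Cdk4. With the gene length offset 3 of the other genes were called higher and 2 lower (beside 6.21% and 2.9% of all genes). Without replicate 3 of both groups 17 were called higher and 18 lower (beside 15.4% and 16.1%). Those 17 and 18 were 3 and 1 of origin recognition and firing, 2 and 4 of the other fork genes, 1 and 2 of other chromatin copying, 1 and 2 of thymidylate synthesis and salvage, 1 and 4 of purine and pyrimidine synthesis, 8 and 4 of other G1 to S control and 1 and 1 of the checkpoint.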

How the data were processed

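Bulk RNA-seq measured 3 sgElovl1 and 3 sgNT libraries, grouped by their titles. Per the study's methods and the submitters' processing notes, reads of SMARTer-amplified cDNA were mapped to mm10 with STAR 2.7.7a, counted with RSEM 1.3.1 and tested with DESeq2 1.36.0. After this amplification the methods name a strand-specific mRNA service. Neither the annotation release nor the strand setting of the counting is given in the sources used here. The deposited tables hold expected counts (estimated read pairs per gene, not scaled) and TPM, with gene lengths. Of 55471 Ensembl IDs, 55230 were paired with a symbol by GENCODE M21, whose assembly GRCm38 is that of mm10, and coordinates follow it.

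Here expected counts were rounded and fitted in edgeR 4.0.16 (R 4.3.3): filterByExpr (minimum count 10), TMM, robust quasi-likelihood fit with group as the only term, two-sided test, Benjamini-Hochberg adjustment over 12546 genes and a threshold of 0.05. A positive log2 fold change means higher in sgElovl1. CPM uses TMM-scaled library sizes, except for the cell type markers and the pseudogene and small RNA gene that overlap Pola1. Those use the unscaled library totals. The biological coefficient of variation was 0.22. On simulated counts for this comparison (12287 genes tested), 14.9% of genes changed by 0.5 log2, 60.9% changed by 1 and 86.2% changed by 2 were called. Of unchanged ones 0.0910% were called. The simulation changed 67, 64 and 65 genes by these sizes, far fewer than the 1727 called here. Its shares need not hold for these data. P-values measure the spread between these 6 samples only.

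The members, the pathway and marker lists, the roles and the tests were chosen with earlier results of these data known, so counts over them are descriptions. The genes given in full were called members and, in each role, the member with the smallest p and that with the highest mean TPM, with the called genes of the pathway list, Mki67, Top2a, Dnmt1 and Elovl1. Values of the remaining members were added. Deviations from the group mean correlated at 0.21, 0.24 and 0.41 between samples with the same number. Between unlike numbers the correlations ran from -0.29 to 0.17. The replicates 1 and 2 of unlike number gave 0.11 and 0.17, close to the values for like numbers. A fit with the replicate number as a block was an alternative. Other alternatives were DESeq2 1.42.0, limma-voom (limma 3.58.1), RLE and upper quartile factors, no filter, log2(TPM + 1) and log2(TPM + 0.1) with limma, a gene length offset, each library left out, and replicate 3 of both groups left out.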

Additional observations from a re-analysis of the deposited data

How the results depend on the processing

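Depth was alike in all libraries, and 3 samples a group and the spread between them set the precision. Differences of about 0.5 log2 or less were called for some genes (Rfc2 at -0.48, Chaf1b at -0.45, Topbp1 at 0.40). They were not called for others (Uhrf1 at 0.44, Fen1 at -0.34). The calls of Pola1, and those of Top2a, Rb1 and Elovl1 when 1 library was left out, did not rest on a single library. The member count called higher was 2 and went to 4 without the low count filter and 4 without replicate 3 of both groups, and the count called lower was 4 and went to 1 on log2(TPM + 1), 1 on log2(TPM + 0.1), 1 with the gene length offset, 1 with the replicate block and gene length offset, and 9 without replicate 3 of both groups. Leaving out 1 library at a time gave 1 to 4 members higher and 0 to 5 lower. These swings went with those of all genes, of which 2.47% to 21.1% were called in the same fits, beside 2.33% to 20.9% of the members. Other pathway genes called higher were 9, and 4 on either TPM scale, 3 with either length offset, 17 without replicate 3 of both groups and 2 to 14 with 1 library left out. Those called lower were 5, and 9 with DESeq2, 1 on either TPM scale and 2 with the length offset. They were 1 with the block and the offset, 18 without replicate 3 of both groups and 0 to 11 with 1 library left out. Of all genes 17.6% were called with DESeq2, 8.65% on log2(TPM + 1), 9.11% with the length offset and 31.5% without replicate 3 of both groups. The median log2 fold change of the members stayed between -0.12 and -0.01 under all 17 alternatives.

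With the replicate block, which pairs samples of the same number, 2 members were called higher and 4 lower, and no member's call changed. Of the other genes named, Rnaseh2b, Cdk4 and E2f7 lost their calls under it.

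The estimate changed sign under at least 1 alternative for 21 of the 43 members, 0 of them called, with main values from -0.23 (Gins3) to 0.28 (Pole). Pole was -0.010 on log2(TPM + 1) and Gins3 0.0073, and Rrm1 (0.15) was -0.067 with the length offset. The log2 fold change of Pcna was 0.054 on log2(TPM + 1), 0.055 on log2(TPM + 0.1), 0.15 with either length offset, and -0.082 to 0.014 with 1 library left out. That of Prim1 was 0.077 with the length offset, 0.080 with the block and the offset, and -0.13 to 0.022 with 1 library left out. That of Ccne1 was -0.083 to 0.12 with 1 library left out and -0.17 without replicate 3 of both groups. Apart from what the length offset and TPM change by construction, the cause was not tested.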
